A study of Mus musculus with 12 samples.

Results

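Ribosome profiling sequences the mRNA fragments that ribosomes protect from nuclease (footprints, RPF) beside the poly(A) mRNA of the same cells. The genes described here are those with abundant mRNA and few footprints: 94 genes out of the 9621 listed in the deposited tables. They were selected on measured values. A member has a mean mRNA value of 30 or more over 5 mRNA libraries, with replicate 1 of the basal mRNA left out, and a mean footprint value over 6 libraries of at most 0.125 of that mRNA mean. Of the 5432 genes that reached the mRNA minimum, 105 lay under the footprint limit, and 11 of these were set aside by name: Atf4, Fth1, Ftl1, Ppp1r15a, Rpl28-ps4 and 6 mitochondrial mt- genes. The remaining 94 were 1.73% of the genes with abundant mRNA.

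The cells were RAW264, a mouse macrophage-like tumour line. They had been treated for 30 min with LPS, bacterial lipopolysaccharide that activates Toll-like receptor 4, at 100 ng/ml together with DEX, the synthetic glucocorticoid dexamethasone, at 10 µM, or with LPS at 100 ng/ml alone, or were left unstimulated (basal). Cycloheximide, which stalls elongating ribosomes, was added at 100 µg/ml to the cells of all groups before extraction. Each of the 3 conditions had 2 footprint and 2 mRNA libraries from independent biological replicates of the one line, so n = 2 per group throughout.

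A transcript can be abundant in a poly(A) library and still carry few footprints for several known reasons. Long noncoding RNAs and pseudogene transcripts lack a long translated frame, some mRNAs are held in the nucleus, and short upstream open reading frames (uORFs) in a leader can keep ribosomes from the main coding sequence. Ferritin mRNAs are the classical case of repression through an iron-responsive element in the leader, and Atf4 and Ppp1r15a are the classical uORF-controlled mRNAs of the integrated stress response. A footprint value and an mRNA value are each shares of their own library, so the ratio of the 2 is relative to the average transcript and does not count ribosomes per molecule.

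Values are given in CPM, the reads of a gene scaled to the read total of its library. The thresholds and ratios use the deposited value, which is CPM plus 1. Levels were not divided by gene length, so differences in CPM between genes follow length as well as abundance, and "abundant" means only a value past the minimum. The footprint libraries held 821946 to 1833560 reads and the mRNA libraries 1475120 to 2529666, so 3 reads in a library amount to 1.64 to 3.65 CPM of footprints and 1.19 to 2.03 CPM of mRNA, a limit that covers counting error only. All 12 macrophage markers examined were listed, with a summed mRNA level of 8027 to 9085 CPM in the 5 libraries used by the rule and 7814 CPM in basal replicate 1. No T cell, B cell, erythroid or endothelial marker was listed; Krt7 was the only epithelial and Col3a1 the only fibroblast marker. Krt7 mRNA stood at 1108 CPM in basal replicate 1 and at 0 to 1.98 CPM in the other 5 mRNA libraries. In bulk libraries, fewer cells that hold a transcript and less of it per cell cannot be told apart.

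Among the members the ratio of footprints to mRNA had a median of 0.0696, against 0.929 over all genes with abundant mRNA, of which the middle 90% ran between 0.251 and 2.52. The median mRNA value of the members, 70.6, lay close to the 70.0 of all abundant genes. Together they held 0.109% of footprints and 2.13% of mRNA, on the deposited scale. Because the ratio chose them, these values describe the selection and were not tested. The footprint counts were small: the members had a median of 33 footprint reads over all 6 libraries, between 0 for Olfr101 and 1403 for Chpt1. For 31 members every footprint library held more than 3 reads, while 18 members had 3 reads or fewer in each of the 6. For these 18 the added 1 is a large part of the footprint value, so the ratio depends much on the mRNA value. How far below the limit they lie was not measurable.

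**Figure D1:**
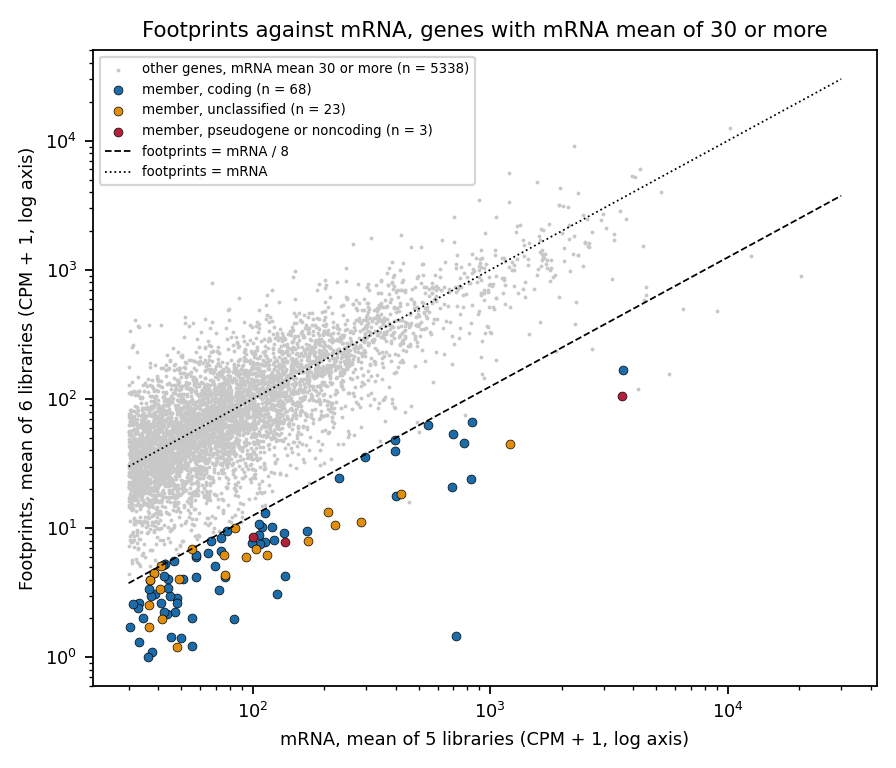
Mean footprint value (6 libraries) against mean mRNA value (5 libraries) for the 5432 genes with an mRNA mean of 30 or more, in CPM + 1 on log axes. The 94 members lie under the dashed line at 0.125 of the mRNA; grey points under it are the 11 genes set aside by name.

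By annotation, 68 of the members were protein-coding, 3 were pseudogenes, and 23 could not be classed: 15 with Gm symbols, 2 with Rik symbols and 6 with no symbol, none of which the RefSeq table matches. Of the abundant genes, 1.31% of the coding ones, 1.96% of the annotated pseudogenes and noncoding RNAs and 25.6% of the unclassified ones were members, and the median ratio over all 90 abundant unclassified genes was 0.358, against 0.940 over the 5189 coding genes. Malat1, Neat1 and the other nuclear and structural RNAs searched for were not in the list of genes and were not analysed here. Of the snoRNA host genes searched for, Zfas1 was listed, with a ratio of 0.0714. It was no member because its mRNA mean of 21.4 missed the minimum. Of 21 listed genes that RefSeq calls long noncoding RNAs, 2 reached the minimum and neither was a member. The members annotated as noncoding are therefore the 3 pseudogenes only. The larger unclassified group was placed on neither side, since its members may or may not encode a protein.

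Ftl1-ps1, one of the 3 pseudogenes, is a copy of the ferritin light chain gene. Its footprints were 75 and 105 CPM in LPS + DEX cells, 116 and 82.7 CPM in LPS cells and 134 and 111 CPM in basal cells. Its mRNA-library values were 3168 and 2904 CPM in LPS + DEX cells, 4037 and 3320 CPM in LPS cells and 4035 and 4503 CPM in basal cells. Footprints of LPS cells overlapped those of both other conditions, whereas the mRNA values of both LPS + DEX libraries lay below those of the other 4, and the ratio over all libraries was 0.0292. Ftl1 itself, the coding parent set aside by name, had a ratio of 0.0277 at a footprint mean of 156 and an mRNA mean of 5629; reads of the near-identical pair may be divided between them, and the share that belongs to the pseudogene is uncertain.

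Gm21887 is the listed symbol of a transcribed pseudogene that RefSeq lists as a synonym of Erdr1. It had footprints of 8.47 and 10.9 CPM in LPS + DEX cells, 2.41 and 4.87 CPM in LPS cells and 6.11 and 7.89 CPM in basal cells, and mRNA of 177 and 172 CPM in LPS + DEX cells, 83.3 and 166 CPM in LPS cells and 99.7 and 79.6 CPM in basal cells. LPS + DEX gave the highest mRNA values and LPS the lowest footprints, and the ratio was 0.0569. Gm4707, a pseudogene whose RefSeq span overlaps the coding gene Smchd1, had a ratio of 0.0855, with footprints of 7.86 and 9.27 CPM in LPS + DEX cells, 6.03 and 9.73 CPM in LPS cells and 5.34 and 7.23 CPM in basal cells and 47.5 to 112 CPM of mRNA over all 6 libraries. Smchd1 itself had a ratio of 3.94, so the pair of overlapping genes lay on opposite sides of the average transcript.

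Gm11444 was one of the unclassified members. Its footprints were 38.1 and 33.8 CPM in LPS + DEX cells, 25.3 and 23.1 CPM in LPS cells and 61.8 and 81.5 CPM in basal cells. Its mRNA was 1251 and 1150 CPM in LPS + DEX cells, 1294 and 1319 CPM in LPS cells and 674 and 1010 CPM in basal cells. Both LPS libraries had the fewest footprints and both basal libraries the most, with no overlap between conditions, and basal replicate 1 had the least mRNA. Other unclassified members were Gm16181 (ratio 0.0438), Gm47283 (0.0394), Gm11032 (0.0473) and Gm10160 (0.0646), each with 74 to 128 footprint reads in all. Over the 23 unclassified members the ratio ran between 0.0250 and 0.1245.

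Chpt1, choline phosphotransferase 1 of the last step of phosphatidylcholine synthesis, was the coding member with the most reads in both assays, a count that is not divided by length. Its footprints were 172 and 149 CPM in LPS + DEX cells, 116 and 111 CPM in LPS cells and 199 and 261 CPM in basal cells. Its mRNA was 3276 and 3116 CPM in LPS + DEX cells, 4443 and 3593 CPM in LPS cells and 2362 and 3658 CPM in basal cells. LPS footprints lay below all others and basal footprints above all others, while the mRNA values of the conditions overlapped. Its ratio was 0.0467, and with 1403 footprint reads it had the most of all members.

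Ocrl, a phosphatidylinositol 4,5-bisphosphate 5-phosphatase of endosomes and the Golgi, had footprints of 70.8 and 62.7 CPM in LPS + DEX cells, 57.9 and 58.4 CPM in LPS cells and 53.4 and 88.1 CPM in basal cells, a ratio of 0.0791 and mRNA of 583 to 910.2 CPM over the 6 libraries. Prodh2, hydroxyproline dehydrogenase, had footprints of 30.9 and 19.6 CPM in LPS + DEX cells, 21.7 and 20.7 CPM in LPS cells and 25.2 and 21 CPM in basal cells and mRNA of 647 and 660.2 CPM in LPS + DEX cells, 904 and 883 CPM in LPS cells and 502 and 1039 CPM in basal cells, a ratio of 0.0292. Its footprints overlapped between conditions, and its basal mRNA replicates lay on either side of the treated ones. Hectd4, a large protein with a HECT ubiquitin-ligase domain, stood at a ratio of 0.0584, Crk, an SH2 and SH3 adaptor of tyrosine kinase signalling, at 0.0769, and Ssbp4, a single-stranded DNA-binding protein, at 0.119. Crk mRNA was 745 and 605 CPM in LPS + DEX cells, 797 and 724 CPM in LPS cells and 1127 and 617 CPM in basal cells, and is one of 7 members whose highest value was in basal replicate 1.

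Ucp2, a carrier of the inner mitochondrial membrane whose mRNA is known to hold a uORF in its leader, had footprints of 52.6 and 50.2 CPM in LPS + DEX cells, 55.5 and 49.9 CPM in LPS cells and 80.1 and 81.5 CPM in basal cells. Its mRNA was 588 and 596 CPM in LPS + DEX cells, 501 and 566 CPM in LPS cells and 424 and 476 CPM in basal cells. Both basal libraries had more footprints and less mRNA than all 4 treated ones, and the ratio of 0.115 lay near the limit. Pxmp4, a peroxisomal membrane protein, showed the opposite order, with footprints of 26 and 23.4 CPM in LPS + DEX cells, 22.9 and 25.6 CPM in LPS cells and 9.16 and 11.8 CPM in basal cells. Its mRNA was 560.2 and 573 CPM in LPS + DEX cells, 775 and 731 CPM in LPS cells and 489 and 809 CPM in basal cells, with the basal replicates on either side of the treated libraries.

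Rnf10, a RING finger ubiquitin ligase, had footprints of 35.1 and 35.5 CPM in LPS + DEX cells, 36.2 and 28 CPM in LPS cells and 46.5 and 51.3 CPM in basal cells. Rnf10 mRNA was 440.4 and 383 CPM in LPS + DEX cells, 434 and 430.1 CPM in LPS cells and 259.6 and 294 CPM in basal cells. Basal cells again had the most footprints and the least mRNA, without overlap with the treated cells. For 2610507B11Rik, a coding gene by RefSeq, the footprints of basal cells overlapped those of both treatments, at 49 and 57.3 CPM in LPS + DEX cells, 33.8 and 45 CPM in LPS cells and 42.7 and 54.6 CPM in basal cells. Its mRNA, 432 and 436 CPM in LPS + DEX cells, 409 and 495 CPM in LPS cells and 171 and 199 CPM in basal cells, was lowest in both basal libraries.

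**Figure D2:**
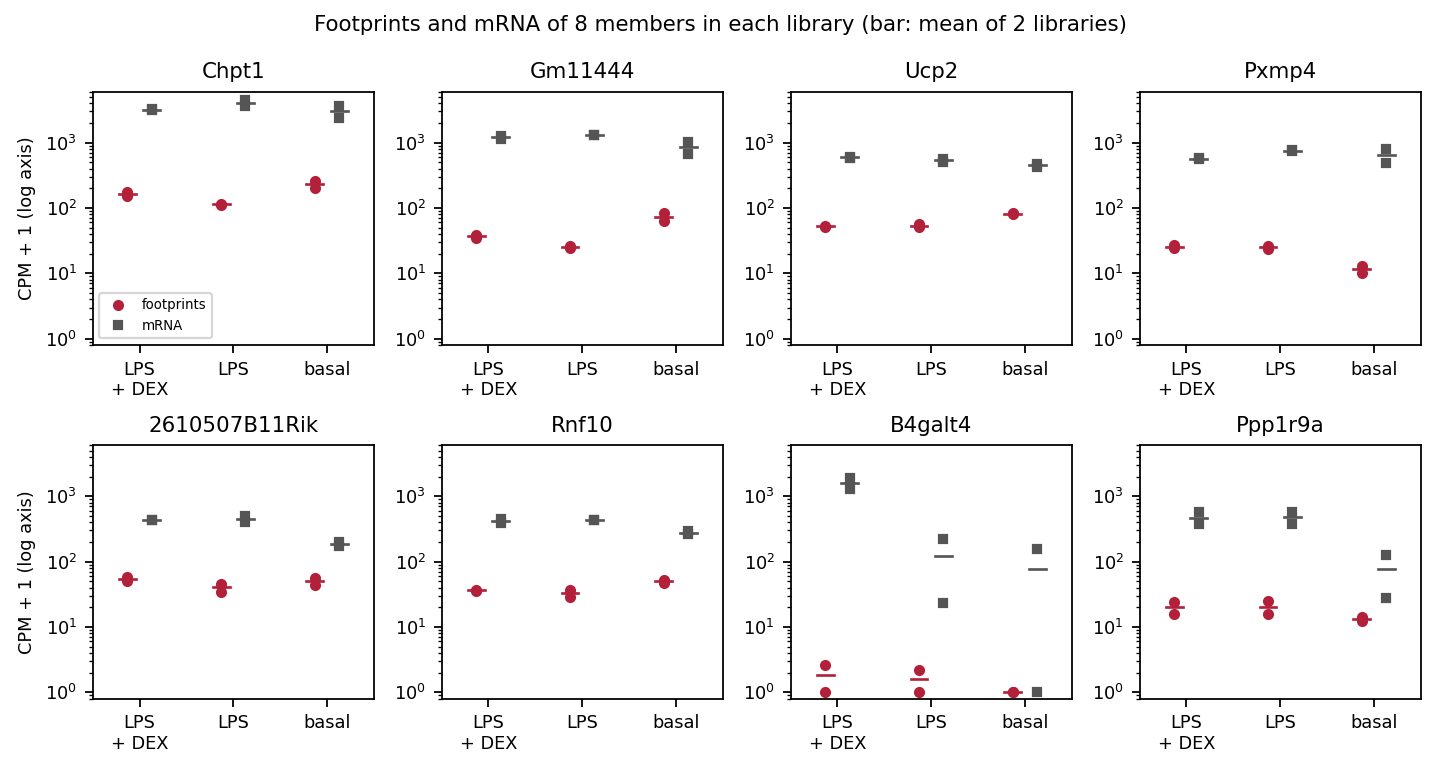
Footprints (circles) and mRNA (squares) of 8 members in every library, in CPM + 1 on a log axis, with bars at the mean of the 2 libraries of a group. Mean footprints lie below mean mRNA in every group, a low ratio being how the members were chosen. In basal replicate 1, B4galt4 had 0 CPM in both assays. Chpt1, Gm11444, Ucp2 and Rnf10 have their highest footprints in basal cells and Pxmp4 its lowest. B4galt4 mRNA ranges between 0 and 1908 CPM with footprints of 0 to 1.64 CPM.

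B4galt4, a β-1,4-galactosyltransferase of the Golgi, had the lowest ratio, 0.00206. Only 4 footprint reads were found in all, giving 0 and 1.64 CPM in LPS + DEX cells, 1.21 and 0 CPM in LPS cells and 0 and 0 CPM in basal cells. Its mRNA was 1908 and 1269 CPM in LPS + DEX cells, 21.9 and 218 CPM in LPS cells and 0 and 152 CPM in basal cells. The LPS + DEX libraries were high, both of them above every other library, and the replicates within LPS and within basal cells lay far apart. Its highest mRNA value was 87.3 times its lowest over the 5 libraries of the rule, a spread of 4 or more that 6 members (6.38%) and 1.16% of all abundant genes had; the other 5 were Ppp1r9a, Gm17387, Il17rd, Ankrd45 and Ptger1.

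The other coding members with the lowest ratios were mostly transcripts near the mRNA minimum with almost no footprint. Where almost no footprint was read, the added 1 is a large part of the footprint value. The order of such ratios therefore depends much on the mRNA value. They were 4930404N11Rik at 0.022, Apol6, an apolipoprotein L family gene, at 0.0237, Zfp174, a C2H2 zinc finger gene, at 0.0245, the odorant receptor gene Olfr101 at 0.0276 and Rcan2, a regulator of calcineurin, at 0.0286. Next came Pla2g1b, the pancreatic secreted phospholipase A2, at 0.0296, Klhl29, a kelch family gene, at 0.0314, Il17rd, a receptor-like inhibitor of FGF signalling, at 0.0316 and the transmembrane gene Tmem82 at 0.0362; Prodh2 and Pxmp4 also belong to these 12. Olfr101 had no footprint read in any library, which in each allows up to 1.64 to 3.65 CPM, with mRNA of 36 and 28.8 CPM in LPS + DEX cells, 33.7 and 28.6 CPM in LPS cells and 0 and 49.3 CPM in basal cells. Zfp174 had footprints of 0.605 and 1.64 CPM in LPS + DEX cells, 3.62 and 6.08 CPM in LPS cells and 0.763 and 0 CPM in basal cells and mRNA of 198 and 135 CPM in LPS + DEX cells, 134 and 96.7 CPM in LPS cells and 2.71 and 67.1 CPM in basal cells, so its highest footprint value lay in an LPS library and its lowest mRNA by far in basal replicate 1.

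The remaining coding members, grouped by known role after their values had been seen and not tested as groups, were spread over many functions. Protein kinases were Map3k10 (0.0528), Map3k11 (0.116), Csnk1g2 (0.0558), Tesk1 (0.0698), Cdk16 (0.0899), Irak1 (0.102) and Mast1 (0.0729), with the ratio in parentheses here and in the sentences that follow. Map3k10, like Map3k11 a mixed-lineage kinase of the JNK cascade, had footprints of 1.21 and 1.09 CPM in LPS + DEX cells, 1.21 and 1.22 CPM in LPS cells and 0.763 and 1.97 CPM in basal cells and mRNA of 51.4 and 40.8 CPM in LPS + DEX cells, 38.4 and 42.6 CPM in LPS cells and 193 and 34.1 CPM in basal cells. Basal replicate 1 was high and the other 5 mRNA libraries lay close together. Cdk16, a cyclin-dependent kinase relative, had footprints of 4.23 and 4.91 CPM in LPS + DEX cells, 4.82 and 3.65 CPM in LPS cells and 7.63 and 8.55 CPM in basal cells and mRNA of 83.8 and 67.3 CPM in LPS + DEX cells, 66.8 and 80.4 CPM in LPS cells and 57.6 and 65.5 CPM in basal cells, with the most footprints in both basal libraries. Ubiquitin ligase components besides Rnf10, March9 and Hectd4 were the substrate receptors Wsb2 (0.093) and Fbxw2 (0.116), and glycosyltransferases besides B4galt4, Mgat4b and Mfng included St6galnac6, a sialyltransferase (0.0778).

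Genes best known from tissues other than macrophages made up a further group. They were Stag3, a cohesin subunit of meiosis (0.0459), Foxl1, a forkhead factor of gut mesenchyme (0.059), Bnc2, a zinc finger protein (0.0694), Cdon, a Hedgehog co-receptor (0.0552), Ppl, periplakin of epithelial junctions (0.0476), Dnah7b, an axonemal dynein chain (0.0663), and Metrn, a secreted neurotrophic factor (0.0775). Bnc2 had footprints of 9.07 and 7.09 CPM in LPS + DEX cells, 15.7 and 3.65 CPM in LPS cells and 0.763 and 2.63 CPM in basal cells and mRNA of 129 and 114 CPM in LPS + DEX cells, 104 and 116 CPM in LPS cells and 46.1 and 70.9 CPM in basal cells. Both assays gave their lowest Bnc2 values in the basal libraries. Enzymes and regulators found in most cells included Fance of the Fanconi anaemia core complex (0.0848), Egln2, a prolyl hydroxylase that marks HIF for degradation (0.0725), and Zdhhc4, a protein palmitoyltransferase (0.08). Fance had footprints of 12.7 and 7.63 CPM in LPS + DEX cells, 14.5 and 8.52 CPM in LPS cells and 5.34 and 6.58 CPM in basal cells and mRNA of 138 and 126 CPM in LPS + DEX cells, 107 and 138 CPM in LPS cells and 78.6 and 88.2 CPM in basal cells, lowest in basal cells in both assays. The others were BC005537 (0.0675), Mmel1 (0.0842), Rnpepl1 (0.122), Zfyve28 (0.0732), Gas2l1 (0.107), Amotl2 (0.0792), 2210408I21Rik (0.12), Tlnrd1 (0.0919), Gm6871 (0.123), Rsc1a1 (0.0639), Dbpht2 (0.107), Adamts10 (0.0917), Nsmf (0.079) and Ankrd45 (0.0832).

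At the edge of the footprint limit, the members just inside it were Atf5 (0.1248), ENSMUSG00000072960 (0.1245) and Gm6871 (0.1233), and the genes just outside were Arpc1a (0.1254), Adipor1 (0.1298) and Zbtb22 (0.1314). At the edge of the mRNA minimum, Ptger1 (30.3), Ankrd45 (31.3) and Mast1 (32.9) were inside, while Gm5111 (29.5), Ppp1r16a (29.3) and Mfrp (28.4) met the footprint limit and missed the minimum. Both edges fall within a continuous run of values.

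Described condition by condition, the footprint-to-mRNA ratio was at most 0.125 for 88 members in LPS + DEX cells, 86 in LPS cells and 68 in basal cells, where only basal mRNA replicate 2 was used. The median ratios were 0.0662, 0.0675 and 0.0793 in that order of conditions, against 0.905, 0.898 and 1.07 over all abundant genes. All 3 conditions met the limit for 60 members, 2 of the 3 for 28 and 1 for 6. Among the 68 coding members, 63 met it in LPS + DEX cells, 65 in LPS cells and 45 in basal cells, with medians of 0.0662, 0.0685 and 0.0991. The 3 pseudogenes met it in every condition; of the 23 unclassified members, 22 met it in LPS + DEX cells, 18 in LPS cells and 20 in basal cells, with medians of 0.0689, 0.0590 and 0.0503. The mRNA mean of the rule holds 4 treated libraries and 1 basal one, so a gene with more mRNA in treated than in basal cells reaches it more readily, and the lower count in basal cells was not tested.

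Basal mRNA replicate 1, which the rule leaves out, gave many of the members far less mRNA than the other libraries did. It lay below all other 5 mRNA libraries for 65 members (69.1%), against 40.2% of abundant genes, and above all of them for 7 (7.45%, against 7.57%). The median log2 ratio of replicate 1 to replicate 2 in basal cells was -0.54 over the members and -0.11 over abundant genes. In 17 members (18.1%), against 0.718% of abundant genes, it held 5 CPM or less, and in 6 it held no read: B4galt4, Gm10217, Tmem82, Rcan2, Gm17545 and Olfr101. Of these 17, 11 were coding and 6 unclassified, and their mRNA in the other 5 libraries was 11.5 to 1908 CPM, with footprints of at most 8.52 CPM. Slit1, an axon guidance ligand, is an example, with mRNA of 43.9 and 41.6 CPM in LPS + DEX cells, 34.3 and 44.8 CPM in LPS cells and 1.36 and 48.7 CPM in basal cells, and F13a1, the coagulation factor XIII A chain, another, with 26.9 and 29.2 CPM in LPS + DEX cells, 31.3 and 33.4 CPM in LPS cells and 4.75 and 40.6 CPM in basal cells. In both, basal replicate 1 is low and the other 5 libraries are close together. With the mean of the basal footprint libraries set against basal mRNA replicate 1 alone, 42 of the 94 had a ratio of at most 0.125. With all 6 mRNA libraries in the mean, the rule gives 149 genes, 81 of them among the 94. The part of this library in the selection was not tested further.

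**Figure D3:**
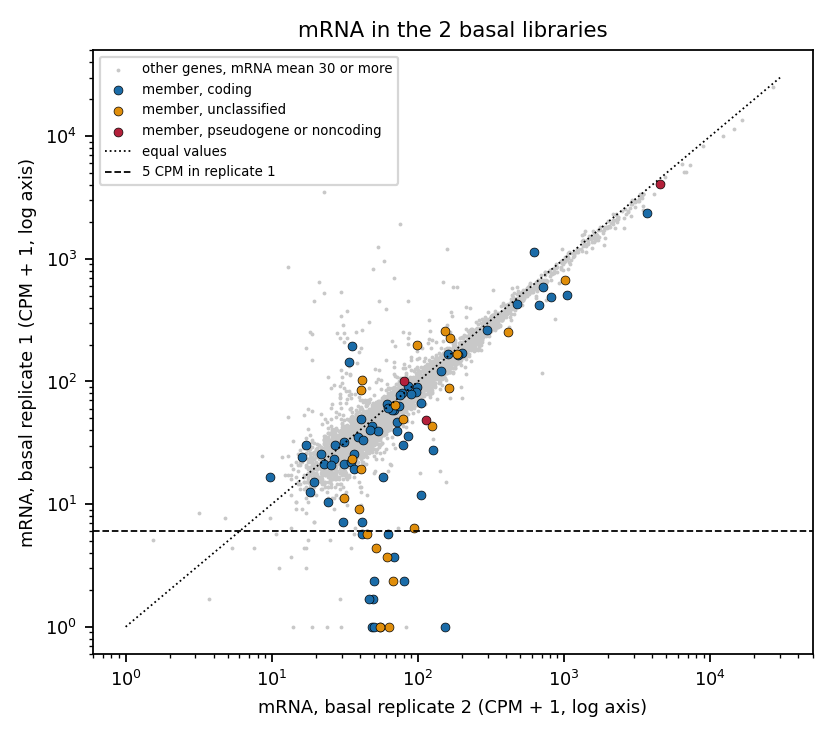
mRNA in basal replicate 1 against basal replicate 2 for members and for the other genes with abundant mRNA, in CPM + 1 on log axes; the dashed line marks 5 CPM in replicate 1. The 17 members at or below that line all had 40.6 CPM or more in replicate 2.

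RefSeq promoter windows, 250 bases before to 50 after the annotated start in GRCm38.p6, were matched for 52 of the 94 members and for 4229 other abundant genes. Counting the dinucleotide CG, which reads the same on both strands, the members had a median of 20 in 300 bases and the other genes 22. Windows with 5 or fewer CG made up 23.1% of the members (12 of 52), against 5.18% of the other genes (219 of 4229). Of the 8 matched members at 5 CPM or less in basal mRNA replicate 1, 4 had such a window, and of the other 44 members 8 had one. A window with few CG and one with many are printed to show the contrast, with every CG in capitals: Olfr101, which had no footprint read and, like Bnc2, no CG, and Csnk1g2, a casein kinase 1 gene with 50 CG, below only 2610507B11Rik with 54.
Olfr101, chr17:37300435-37300734, minus strand: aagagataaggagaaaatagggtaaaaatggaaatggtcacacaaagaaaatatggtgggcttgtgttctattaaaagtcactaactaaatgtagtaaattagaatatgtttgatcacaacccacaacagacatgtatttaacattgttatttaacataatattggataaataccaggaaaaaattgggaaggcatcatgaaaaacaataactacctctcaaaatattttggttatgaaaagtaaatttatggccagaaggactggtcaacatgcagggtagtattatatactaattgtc
Csnk1g2, chr10:80622530-80622829, plus strand: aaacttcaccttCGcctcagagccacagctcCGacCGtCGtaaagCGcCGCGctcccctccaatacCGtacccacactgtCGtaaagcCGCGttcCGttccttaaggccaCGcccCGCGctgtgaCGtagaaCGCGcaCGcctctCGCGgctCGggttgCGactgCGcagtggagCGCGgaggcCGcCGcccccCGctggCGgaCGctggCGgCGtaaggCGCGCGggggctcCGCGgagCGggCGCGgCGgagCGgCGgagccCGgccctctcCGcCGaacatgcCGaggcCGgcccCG
Csnk1g2 had footprints of 5.44 and 7.63 CPM in LPS + DEX cells, 7.23 and 10.9 CPM in LPS cells and 7.63 and 11.8 CPM in basal cells and mRNA of 193 and 179.9 CPM in LPS + DEX cells, 182 and 189 CPM in LPS cells and 88.8 and 98 CPM in basal cells, with mRNA lowest in both basal libraries.

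Genes whose RefSeq span overlaps that of a neighbour were counted because strand use was not stated in the sources used here. A span runs from gene start to gene end, introns included, and either strand was counted. In RefSeq, 17 of the 68 coding members (25.0%) overlap another coding gene, against 21.1% of abundant coding genes. Where the neighbour was listed, it usually had a far higher ratio: Cd72 (1.06) beside Tesk1 (0.0698), Trp53bp1 (1.08) and Ppip5k1 (0.680) beside Map1a (0.1004), Mesd (1.39) beside Tlnrd1 (0.0919), Ddi2 (1.498) beside Rsc1a1 (0.0639) and Mfsd12 (0.621) beside 4930404N11Rik (0.0220). Whether such pairs share transcribed sequence was not examined, and reads in any shared sequence cannot be told apart here.

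Of the gene lists examined, 3 held members. The list of integrated stress response and uORF mRNAs had 15 listed genes, 9 of them abundant, and 2 members, Atf5 and Slc35a4. The median ratio of the 9 was 1.15. Atf4 (ratio 0.1097) and Ppp1r15a (0.0352) also met both thresholds and are no members only because they were set aside by name. Selenow was the only member of 15 abundant selenoprotein genes (median ratio 0.635), and Zfp174 and Zfp457 were the members among 42 abundant C2H2 zinc finger genes (median 0.438). No member was found among 30 abundant immediate early and LPS-induced genes, 7 glucocorticoid targets, 9 polyamine genes, 31 CLK kinase and SR splicing factor genes, 48 small respiratory chain and import genes, 32 small secretory and membrane proteins, 10 histone genes, 22 translation factor and related mRNAs or the 12 macrophage markers.

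Atf5, a transcription factor of the stress response whose leader holds uORFs, had footprints of 2.42 and 0 CPM in LPS + DEX cells, 4.82 and 4.87 CPM in LPS cells and 4.58 and 9.21 CPM in basal cells. Its mRNA was 38.7 and 29.2 CPM in LPS + DEX cells, 53.2 and 40.9 CPM in LPS cells and 39.3 and 46 CPM in basal cells. LPS + DEX cells had the fewest footprints, and the ratio by condition was 0.0631 in LPS + DEX cells, 0.122 in LPS cells and 0.168 in basal cells. Slc35a4, a nucleotide sugar transporter family gene with a translated uORF known from human cells, had footprints of 3.02 and 3.27 CPM in LPS + DEX cells, 2.41 and 0 CPM in LPS cells and 3.82 and 6.58 CPM in basal cells. Slc35a4 mRNA was 93.3 and 84.2 CPM in LPS + DEX cells, 70.3 and 82.2 CPM in LPS cells and 42.7 and 47.1 CPM in basal cells, lowest in both basal libraries.

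Selenow, a small selenoprotein that reads UGA as selenocysteine, had footprints of 5.44 and 9.82 CPM in LPS + DEX cells, 6.03 and 9.73 CPM in LPS cells and 7.63 and 3.29 CPM in basal cells. Its mRNA was 53.8 and 47.4 CPM in LPS + DEX cells, 71.5 and 51.8 CPM in LPS cells and 65.8 and 104 CPM in basal cells. Footprints overlapped between conditions, and basal replicate 2 had the most mRNA. Selenow met the footprint limit in basal cells only, with ratios of 0.167 in LPS + DEX cells, 0.142 in LPS cells and 0.0616 in basal cells. Zfp457 had a ratio of 0.0601 on 12 footprint reads, with 3 reads or fewer in 5 of the 6 libraries.

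Changes between conditions were fitted over all listed genes with limma, on log2 of the deposited value, and called at an adjusted p (Benjamini-Hochberg over all genes tested) under 0.05. Folds are on the log2(CPM + 1) scale, which understates changes of low values, with standard errors. All 94 members were tested for mRNA and for translational efficiency (TE, the change of footprints relative to that of mRNA), and 41 passed the filter on low footprint values, 10 reads at median depth in 2 libraries and 15 in total. The other 53 had too few footprint reads for a footprint test.

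In LPS cells against basal cells, footprints of Gm11444 and Chpt1 fell. The log2 fold change was -1.51 ± 0.21, adjusted p = 0.000468 for Gm11444 and -1.004 ± 0.14, adjusted p = 0.000537 for Chpt1 (limma), and both calls held when any one footprint library was left out. Ucp2 (-0.61 ± 0.16, adjusted p = 0.0343) and the unclassified 4933415A04Rik (-2.18 ± 0.50, adjusted p = 0.0176) also fell, and Pxmp4 rose (1.14 ± 0.28, adjusted p = 0.0267). Footprints of 4933415A04Rik were 15.1 and 11.4 CPM in LPS + DEX cells, 1.21 and 2.43 CPM in LPS cells and 15.3 and 8.55 CPM in basal cells, lowest in both LPS libraries. In all, 1 of the 41 tested members (2.44%) rose and 4 (9.76%) fell, against 3.3% and 4.32% of all genes. The footprint mean of the rule holds more treated than basal libraries, so genes with fewer footprints in treated cells meet the limit more readily. These shares of the members are therefore not independent of how they were chosen. The Ucp2 call was lost without any one of the 6 libraries (adjusted p up to 0.132), the Pxmp4 call without any library except basal replicate 2 (up to 0.0989), and that of 4933415A04Rik without basal replicate 1, LPS replicate 1 or either LPS + DEX replicate (up to 0.125).

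LPS + DEX cells against LPS cells differed in the footprints of 2 members, which rose. Those of 4933415A04Rik rose by 2.36 ± 0.50, adjusted p = 0.0112, and those of Chpt1 by 0.497 ± 0.14, adjusted p = 0.0485 (limma). These 2 were 4.88% of the members tested, against 3.14% of genes higher and 3.55% lower. Chpt1 lost the call without any one of the 4 libraries compared (adjusted p up to 0.378), and 4933415A04Rik without either LPS + DEX library (up to 0.208).

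In LPS + DEX cells against basal cells, footprints of Gm11444 (-0.96 ± 0.21, adjusted p = 0.015), Ucp2 (-0.64 ± 0.16, adjusted p = 0.0361) and ENSMUSG00000072960 (-2.16 ± 0.58, adjusted p = 0.0496) fell, while those of Pxmp4 rose (1.17 ± 0.28, adjusted p = 0.0303; limma). Footprints of ENSMUSG00000072960, which carries no symbol, were 2.42 and 1.09 CPM in LPS + DEX cells, 4.82 and 4.87 CPM in LPS cells and 13 and 9.21 CPM in basal cells, highest in both basal libraries. It passed the filter on low values only through the 2 basal libraries, the group where it is high, so the filter favoured this call. With no filter its adjusted p was 0.057. In all, 1 of 41 members (2.44%) was higher and 3 (7.32%) were lower, against 1.77% and 2.86% of all genes. As in LPS cells, these counts are not independent of how the members were chosen. Each of the 4 calls was lost without either LPS + DEX library, with an adjusted p of up to 0.327; those of Gm11444, Ucp2 and Pxmp4 were also lost without 1 or both basal libraries. Without either basal library ENSMUSG00000072960 failed the filter and had no test. Chpt1 missed the threshold (-0.51 ± 0.14, adjusted p = 0.0565).

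In the mRNA of LPS cells against basal cells, 18 of 94 members (19.1%) rose and none fell, against 9.03% and 1.68% of all genes; all 18 were coding. The largest changes were in Ppp1r9a, the actin-binding phosphatase scaffold neurabin (2.97 ± 0.62, adjusted p = 0.0306), Map1a, a microtubule-associated protein (1.70 ± 0.35, adjusted p = 0.0301), and Ptger1, the EP1 receptor of prostaglandin E2 (1.36 ± 0.31, adjusted p = 0.0361; limma). They were followed by March9, a membrane-bound RING ubiquitin ligase (1.30 ± 0.25, adjusted p = 0.027), 2610507B11Rik (1.28 ± 0.14, adjusted p = 0.0152) and 4930404N11Rik (1.26 ± 0.21, adjusted p = 0.0223). Ppp1r9a mRNA was 563 and 369.5 CPM in LPS + DEX cells, 574 and 371 CPM in LPS cells and 26.4 and 126 CPM in basal cells, with all 4 treated libraries above both basal ones. Its footprints, 14.5 and 23.4 CPM in LPS + DEX cells, 24.1 and 14.6 CPM in LPS cells and 11.4 and 13.2 CPM in basal cells, changed by 0.58 ± 0.34, adjusted p = 0.353 and missed the threshold. Irak1, a kinase directly downstream of Toll-like receptors, was among the 18, with 0.61 ± 0.15, adjusted p = 0.0421 and mRNA of 104 and 107 CPM in LPS + DEX cells, 111 and 129 CPM in LPS cells and 79.3 and 76.3 CPM in basal cells.

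The median log2 change of the 94 members was 0.69, against 0.26 over all genes; with basal replicate 1 left out the medians were 0.24 and 0.22. With basal replicate 2 left out instead, the medians were 0.87 and 0.31. They were 0.725 and 0.273 without LPS replicate 1, and 0.631 and 0.25 without LPS replicate 2. How many genes were called, members or all genes, depended strongly on the library left out. Under median-of-ratios scaling the median over all genes shifted to 0.01 and that of the members to 0.43, with 4 members higher and none lower, and 184 genes higher and 317 lower. Since the rule takes in genes with more mRNA in treated cells more readily, the excess of the members over the background is not independent of how they were chosen.

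LPS + DEX cells against LPS cells gave no member and no gene called in mRNA by limma (0% of genes), also on the recovered read counts with limma-voom; at an unadjusted p under 0.05 there were 0 members and 183 genes. B4galt4, with 1908 and 1269 CPM in LPS + DEX cells against 21.9 and 218 CPM in LPS cells, had a log2 fold change of 4.46 ± 2.05, adjusted p = 1. With either basal library left out of the fit, B4galt4 was the one member called, at the same fold, with an adjusted p of 0.00197 without replicate 1, at 0 reads, and 0.00132 without replicate 2. In either case 5 genes were called. Its footprints did not exceed 3 reads in any library.

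In the mRNA of LPS + DEX cells against basal cells, 27 members (28.7%) rose and 1 (1.06%) fell, against 18.5% and 4.23% of all genes. The largest were B4galt4 (6.97 ± 2.05, adjusted p = 0.047), Ppp1r9a (2.95 ± 0.62, adjusted p = 0.0166), Klhl29 (1.70 ± 0.36, adjusted p = 0.0168), Dbpht2 (1.67 ± 0.45, adjusted p = 0.0341), 4930404N11Rik (1.60 ± 0.21, adjusted p = 0.00701) and Ptger1 (1.59 ± 0.31, adjusted p = 0.0134; limma). Klhl29 mRNA was 224 and 132 CPM in LPS + DEX cells, 154 and 99.3 CPM in LPS cells and 38.6 and 70.4 CPM in basal cells, with no overlap of LPS + DEX and basal cells. The member that fell was the pseudogene Ftl1-ps1 (-0.49 ± 0.13, adjusted p = 0.0331), and its call was lost without basal replicate 2 or either LPS + DEX replicate (adjusted p up to 0.12). Of the 27, 26 were coding and Gm47283 was the one unclassified gene. The call of B4galt4 was lost without any one of the 4 treated libraries, and its fold leans on the 0 reads of basal replicate 1: without that library it was 3.35, with an adjusted p of 0.00458. The median change was 0.74 over the members and 0.28 over all genes. It was 0.31 and 0.24 without basal replicate 1, and 0.935 and 0.329 without basal replicate 2. Without LPS + DEX replicate 1 it was 0.656 and 0.34, and without LPS + DEX replicate 2 it was 0.8 and 0.239. How many genes were called, members or all genes, again depended strongly on the library left out. After scaling by medians of ratios, 14 members were higher and 2 lower, beside 720 genes higher and 826 lower, where the deposited scaling gave 1714 and 392. The median over all genes was then -0.003 and that of the members 0.45.

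Translational efficiency in LPS cells against basal cells was lower for 15 members and higher for 1, against 13.6% and 3.08% of all genes; 13 of the 15 were coding. Mfng, a fringe glycosyltransferase that modifies Notch, had the largest drop (-2.76 ± 0.67, adjusted p = 0.0148), followed by Slc35a4 (-2.46 ± 0.65, adjusted p = 0.0225) and Tesk1, a kinase that phosphorylates cofilin (-2.43 ± 0.68, adjusted p = 0.0291; limma). Ppp1r9a (-2.39 ± 0.74, adjusted p = 0.0437), Gm11444 (-2.18 ± 0.25, adjusted p = 0.00116) and Zfpm1, a cofactor of GATA factors (-2.06 ± 0.46, adjusted p = 0.0108), came next. Mfng footprints were 6.65 and 8.18 CPM in LPS + DEX cells, 0 and 2.43 CPM in LPS cells and 5.34 and 9.86 CPM in basal cells, and its mRNA was 73.5 and 56.3 CPM in LPS + DEX cells, 66.8 and 69.4 CPM in LPS cells and 38.6 and 52 CPM in basal cells. LPS footprints were the lowest, and LPS mRNA lay above basal mRNA. The largest folds rest on few footprint reads over the 6 libraries: 50 for Mfng, 28 for Slc35a4, 57 for Tesk1 and 44 for Zfpm1, against 134 for Ppp1r9a and 370 for Gm11444.

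Further calls were 4933415A04Rik (-2.02 ± 0.60), 2610507B11Rik (-1.58 ± 0.25), Chpt1 (-1.45 ± 0.26), Map3k11, a kinase of the JNK cascade (-1.41 ± 0.31), Mgat4b, an N-glycan branching enzyme (-1.31 ± 0.38), Rnf10 (-1.25 ± 0.21), Abhd17a, a depalmitoylase (-1.06 ± 0.29), Hectd4 (-1.03 ± 0.28) and Ucp2 (-0.86 ± 0.17). The one that rose was Gm10203 (1.98 ± 0.62, adjusted p = 0.0443), on 27 footprint reads. The parts played by the 2 assays differed between genes. For Chpt1, Gm11444, Ucp2 and 4933415A04Rik the footprints themselves fell and the mRNA change missed the threshold. For Ppp1r9a, 2610507B11Rik, Rnf10, Map3k11, Tesk1, Mgat4b and Abhd17a the mRNA rose and the footprint change missed the threshold, and for Slc35a4 and Zfpm1 the mRNA rose and the footprints were too few to test. Gm11444, 2610507B11Rik, Chpt1, Rnf10 and Ucp2 kept the call whichever of the 12 libraries was left out. Gm11444, 2610507B11Rik, Rnf10 and Ucp2 were the 4 also called by limma-voom on recovered reads.

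**Figure D4:**
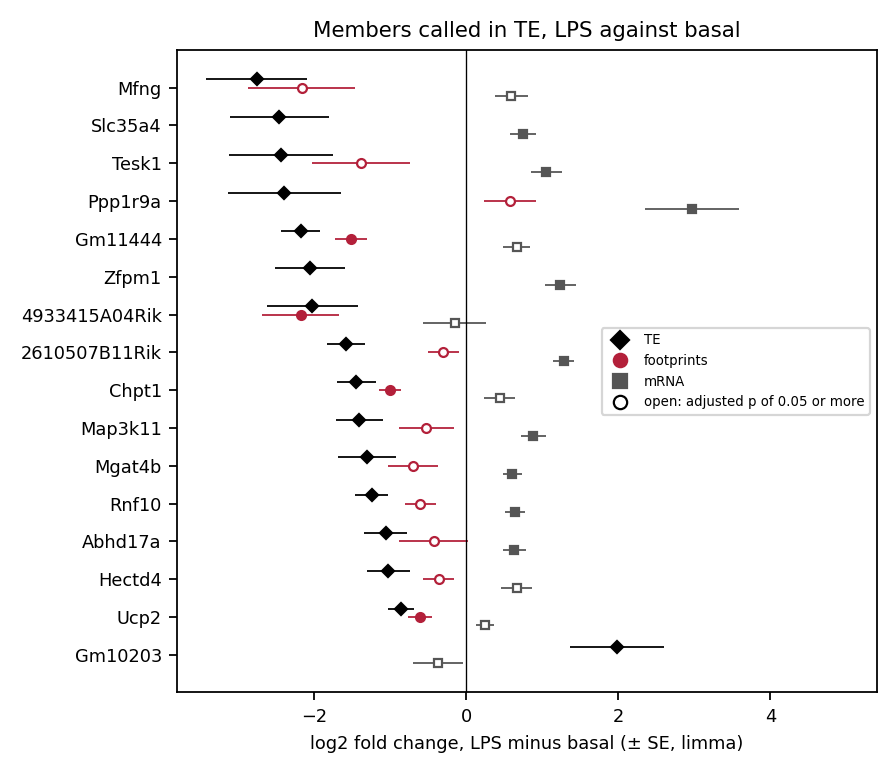
log2 fold changes, LPS against basal, of TE (diamonds), footprints (circles) and mRNA (squares) with standard errors from limma, for the 16 members called in TE; open symbols missed an adjusted p of 0.05, and members with too few footprint reads have no circle. Chpt1, Gm11444, Ucp2 and 4933415A04Rik have filled footprint symbols below 0, whereas Ppp1r9a, 2610507B11Rik and Zfpm1 have filled mRNA symbols above 0.

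The median TE change was -0.84 over the members and -0.34 over all genes. Without basal mRNA replicate 1 the medians were -0.29 and -0.29. The median of the members covers all 94, of which only 41 had enough footprint reads for a footprint test. For the others the footprint part of the TE change was poorly measured. Median-of-ratios scaling moved the median over all genes to -0.03 and that of the members to -0.54. It gave 7 members lower and 2 higher, and 432 genes lower and 583 higher. The rule's means hold more treated than basal libraries, so genes with a lower footprint-to-mRNA ratio in treated cells meet the limit more readily. The lower median TE of the members, beside all genes, is therefore not independent of how they were chosen. For the 3 lists that held members, TE was lower for 2 and higher for none of 15 uORF and stress response genes, lower for 1 and higher for 1 of 16 selenoprotein genes and lower for 12 and higher for none of 156 zinc finger genes, beside 13.6% lower and 3.08% higher over all genes. After median-of-ratios scaling the counts were 1 lower and 1 higher, none lower and 1 higher, and 5 lower and 1 higher, in that order of lists.

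LPS + DEX cells against LPS cells gave no member called in TE, against 0.0531% of all genes (5 genes by limma, none by limma-voom); 8 members and 597 genes had an unadjusted p under 0.05. Chpt1 changed by 0.82 ± 0.26, adjusted p = 0.425, and Atf5 by -1.20 ± 0.70, adjusted p = 0.902, both short of the threshold. In LPS + DEX cells against basal cells 11 members (11.7%) were lower and 1 (1.06%) higher. Over all genes the shares were 12.2% and 2.68%, the share lower being close to that of the members. Median-of-ratios scaling left 4 members lower and 1 higher, beside 337 genes lower and 523 higher, where the deposited scaling gave 1149 and 252. The median change was -0.86 over the members and -0.34 over all genes. After that scaling it was -0.53 and -0.01, and without basal mRNA replicate 1 it was -0.39 and -0.30. As in LPS cells, the lower median TE of the members against basal cells is not independent of how they were chosen.

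The lower ones were March9 (-2.502 ± 0.63, adjusted p = 0.0207), Ppp1r9a (-2.40 ± 0.74, adjusted p = 0.0461), ENSMUSG00000072960 (-2.24 ± 0.65, adjusted p = 0.0355), Map1a (-1.91 ± 0.55, adjusted p = 0.0363), Map3k11 (-1.53 ± 0.31, adjusted p = 0.00763) and Gm11444 (-1.504 ± 0.25, adjusted p = 0.00362), and with smaller changes Csnk1g2, 2610507B11Rik, Ssbp4, Ucp2 and Rnf10, between -1.49 and -1.03 (limma). March9 had 14 footprint reads in all, with 3 or fewer in 5 of the 6 libraries. Map1a had 25. Both had too few for a footprint test. With limma-voom on recovered reads the adjusted p was 0.163 for March9, 0.235 for Ppp1r9a, 0.39 for ENSMUSG00000072960 and 0.344 for Map1a. The 6 members called were Map3k11, Gm11444, Csnk1g2, 2610507B11Rik, Ucp2 and Rnf10.

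Pxmp4 was the one with higher TE (1.32 ± 0.29, adjusted p = 0.0111), and its call was lost only without LPS + DEX footprint replicate 1 (adjusted p = 0.0517). Map3k11 footprints were 10.3 and 10.9 CPM in LPS + DEX cells, 8.44 and 12.2 CPM in LPS cells and 13.7 and 16.4 CPM in basal cells and its mRNA 144 and 119.6 CPM in LPS + DEX cells, 108 and 124 CPM in LPS cells and 64.4 and 60.1 CPM in basal cells, so mRNA was lowest and footprints highest in both basal libraries. Map3k11, Gm11444, Ucp2 and Rnf10 kept the call without any one of the 12 libraries. The 2 fits against basal cells share the basal libraries, so a gene called in both is not 2 independent results. For Selenow the TE change was 1.16 ± 0.55, adjusted p = 0.171 and for Slc35a4 -1.51 ± 0.65, adjusted p = 0.134 in LPS + DEX cells against basal cells, neither past the threshold.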

How the data were processed

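Poly(A) mRNA and ribosome footprints of RAW264 cells were sequenced on an Ion PGM, per the labels and the series' design text; for aligner, genome build, counter and strand use the entry is: not given in the sources used here. The deposited values are CPM (reads scaled to the library's total) with 1 added by the authors: once 1 is subtracted, all values are whole multiples of the CPM of 1 read to within 0.1 read. The authors listed genes whose highest value over the 12 libraries is at least 16. Members and gene lists were chosen with earlier results of these data known.

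Levels, ratios and counts of members were computed from the deposited values in Python 3.11.15. Changes were fitted with limma 3.58.1 (R 4.3.3, trend) on log2 of the deposited value, so with a pseudocount of 1. The 3 conditions shared one fit per assay and TE came from the interaction over all 12 libraries; p-values were adjusted over all genes tested and called under 0.05. Genes needed 10 reads at median depth in 2 libraries and 15 in total. The fit was tested on simulated data: for LPS against basal it recovered 60 of 99 genes changed 2-fold and 99 of 100 changed 4-fold in mRNA, 48 of 100 and 93 of 99 in footprints, and 4 of 100 and 71 of 100 in TE. Alternatives were scaling, filter, pseudocount, replicate block, leaving out each library and, added after seeing the data, limma-voom on recovered reads and a replicate block with the LPS numbers crossed. The replicate numbers did not pair the samples. Named genes are all pseudogene members, the 12 coding members with the most mRNA, the 12 with the lowest ratios, the 6 largest called changes without overlap per comparison, list members and genes at the thresholds. The other members, Irak1 and Slit1 among them, were named after their values were seen. Promoter windows are from RefSeq GRCm38.p6.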

Additional observations from a re-analysis of the deposited data

How the results depend on the processing

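The set of 94 members changed to 149 genes with all 6 mRNA libraries in the mean and to 50 with an mRNA minimum of 60; leaving out 1 library gave 88 to 102. Median-of-ratios scaling left 4 members called in mRNA for LPS against basal, 16 for LPS + DEX against basal, 1 in footprints for LPS + DEX against LPS, 2 for LPS + DEX against basal, and in TE 9 for LPS and 5 for LPS + DEX against basal. With limma-voom these counts were 9 in mRNA for LPS against basal, 2 in footprints for LPS against basal, 0 for LPS + DEX against LPS, 4 in TE for LPS against basal and 6 for LPS + DEX against basal. Without a filter no footprint call remained for LPS + DEX against basal. Leaving out single libraries gave, in mRNA, 0 to 66 members called for LPS against basal, 0 to 1 for LPS + DEX against LPS and 0 to 68 for LPS + DEX against basal; in footprints 2 to 5, 0 to 2 and 0 to 4 in that order; and in TE 5 to 39 for LPS and 5 to 35 for LPS + DEX against basal. The number of genes called over the whole data shifted in these fits as well, so the shifts are not particular to the members. Their cause was not tested. No direction reversed among the fold changes of named members: leaving out a library kept 168 calls and lost 112, and the other settings kept 137 and lost 50.

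A fit with the replicate number as a block called 9, 0 and 21 members in mRNA, 5, 1 and 3 in footprints and 15, 0 and 10 in TE, for LPS against basal, LPS + DEX against LPS and LPS + DEX against basal in turn. Over all genes it called 337 higher and 53 lower in mRNA for LPS against basal, where the main fit called 838 and 156. For LPS + DEX against basal these were 1431 and 289, where the main fit called 1714 and 392. In footprints for LPS against basal it called 296 and 394, and in TE 247 and 1069. Same-numbered libraries did not deviate together: the correlations of their replicate differences lay between -0.27 and 0.076. With the LPS numbers crossed, a fit chosen after seeing the data, the mRNA counts of members were 20, 0 and 28. Over all genes that fit called 926 higher and 204 lower for LPS against basal, and 1795 and 491 for LPS + DEX against basal. The edgeR fit listed beforehand as an alternative was not run, because the values carry an added 1. Depth limits the footprints: 53 of the members had too few footprint reads to test, and a 2-fold TE change was rarely recovered in simulated data.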
